A study of Mus musculus with 4 samples.

Results

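The genes described here are 31 genes of side routes of sugar metabolism in mouse macrophages, taken by name from the 21523 gene identifiers of the deposited table. They comprise 7 pentose phosphate genes, 5 polyol genes, 10 glycogen genes, 5 hexosamine genes and 4 genes of the MondoA/ChREBP axis, and a row was found for each. Messenger RNA was sequenced in RAW264.7, a macrophage-like line from a mouse leukaemia tumour, in 2 untreated control libraries and in 2 libraries from cells given 0.5 mM 1,5-anhydroglucitol (1,5-AG) for 24 h. All cells were grown in DMEM with fetal bovine serum and antibiotics, and the labels name no genetic change in either group. 1,5-AG is a dietary polyol with the ring of glucose but no hydroxyl group on its first carbon. Only the treated group has a stated duration. Nothing in the labels says that replicates came from separate cultures, so p-values reflect only the scatter of these 4 libraries, and that scatter may be technical.

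The pentose phosphate pathway diverts glucose phosphate from glycolysis. Its oxidative branch makes NADPH, which macrophages use both to make the oxidative burst and to limit oxidative damage, and its non-oxidative branch makes ribose phosphate and returns sugars to glycolysis. The polyol pathway reduces glucose to sorbitol and oxidises it to fructose. Glycogen stores glucose as a polymer, and the hexosamine pathway makes UDP-GlcNAc, the donor for protein glycosylation and for the O-GlcNAc mark. MondoA (gene Mlxip) and ChREBP (gene Mlxipl) are transcription factors that pair with Mlx, respond to hexose phosphates, and drive Txnip and Arrdc4, whose products limit glucose uptake.

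Each library held 14616556 to 16228673 fragments assigned to genes, recovered from the FPKM values (fragments per kilobase of exon, scaled to library depth). Counting intervals and floors below cover counting error only, as fragments carry no molecular identifiers. The 6 macrophage markers had at least 6.87 FPKM in each library. Of 15 markers of fibroblasts, lymphocytes, epithelium, liver and erythroid cells, the 3 with a row reached at most 0.188 FPKM. The lysozyme gene Lyz2 passed the test described below, with 4554 and 4422 FPKM in control and 3095 and 3001 FPKM with 1,5-AG. Both 1,5-AG libraries lay below both controls for 5 of the 6 macrophage markers (all but Itgam), beside 25.4% of tested genes, and the part of this in the differences below was not tested. In bulk RNA, fewer cells of a kind and less RNA per cell cannot be told apart.

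The comparison asks how 1,5-AG changes expression of these routes. None of the 28 genes with a mean of at least 1 FPKM passed the limma test (adjusted p from 0.0841 for Taldo1 to 0.955 for Pgm2), against 1.46% of the 11120 genes tested (0.809% higher and 0.647% lower), and Pygl, Stbd1 and Gnpnat1 lay under that limit and were not tested. The test was limma on log2(FPKM + 1) with adjustment over all tested genes, and differences below are 1,5-AG minus control on that scale, which understates changes of weakly expressed genes. Of the 28, 18 differences were negative and 10 positive, with a median of -0.04 beside -0.0025 over all tested genes. At an unadjusted p under 0.05 there were 9 of 28 (32.1%) beside 18.2% of all tested genes, 6 lower (21.4%, beside 9.04%) and 3 higher (10.7%, beside 9.15%). The groups did not overlap in 18 of the 28, beside 49.6% of tested genes. Both 1,5-AG libraries lay below both controls for 12 genes (42.9%, beside 25.4% of tested genes) and above them for 6 (21.4%, beside 24.2%).

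The differences were small on the log2(FPKM + 1) scale as well as uncalled. As percent changes of mean FPKM they ran from -25.4% in Arrdc4 to 17.1% in Gbe1. In 25 of the 28 genes the 95% interval of the difference lay within 0.5 of 0 on the log2 scale, and the exceptions were Pgm1, Khk and Arrdc4. The median absolute difference was 0.11 in these genes and 0.08 over all tested genes. With voom, limma's weighted test on the recovered fragments, 5 of the 28 passed, beside 8.3% of tested genes. These 5 were Taldo1, Pgd, Tkt and Txnip, lower, and Akr1b3, higher. With 2 libraries a group the smallest two-sided p of an exact permutation test is 0.333, and limma instead borrows variance from all tested genes.

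**Figure D1:**
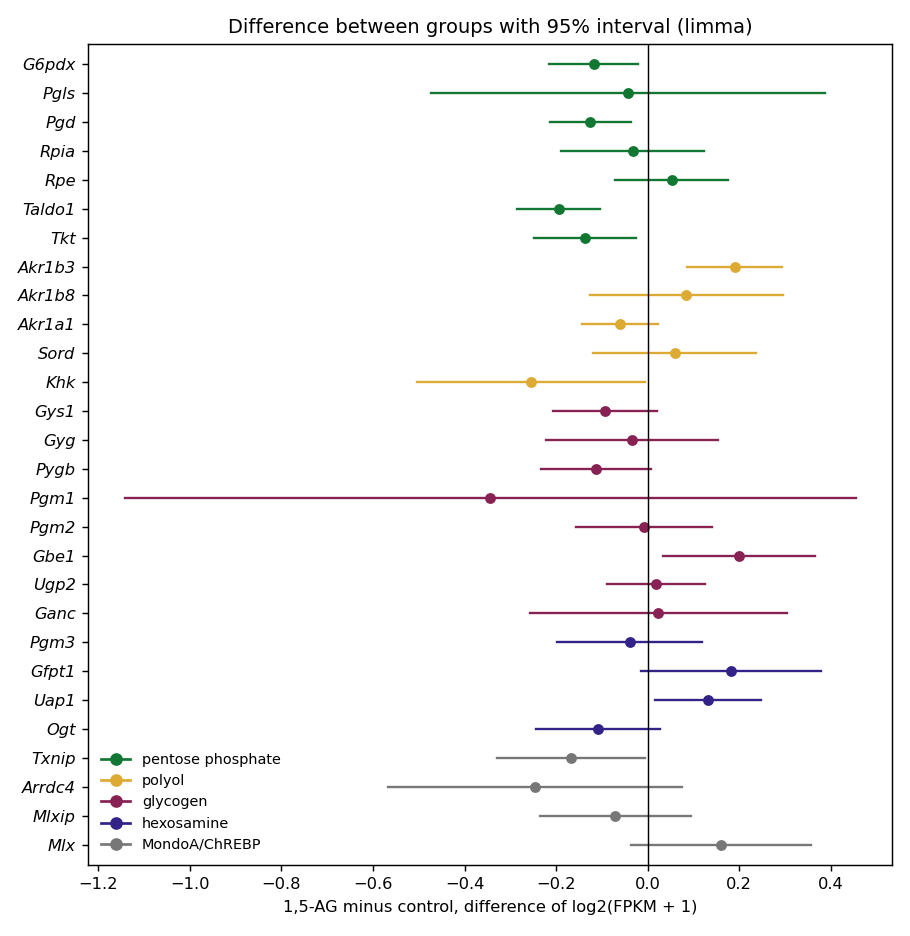
Difference between 1,5-AG and control for the 28 tested genes, in log2(FPKM + 1), with the unadjusted 95% interval from limma as a bar and colour for the pathway. Intervals of 9 genes exclude 0, and Pgm1 has the widest, from -1.14 to 0.45.

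**Figure D2:**
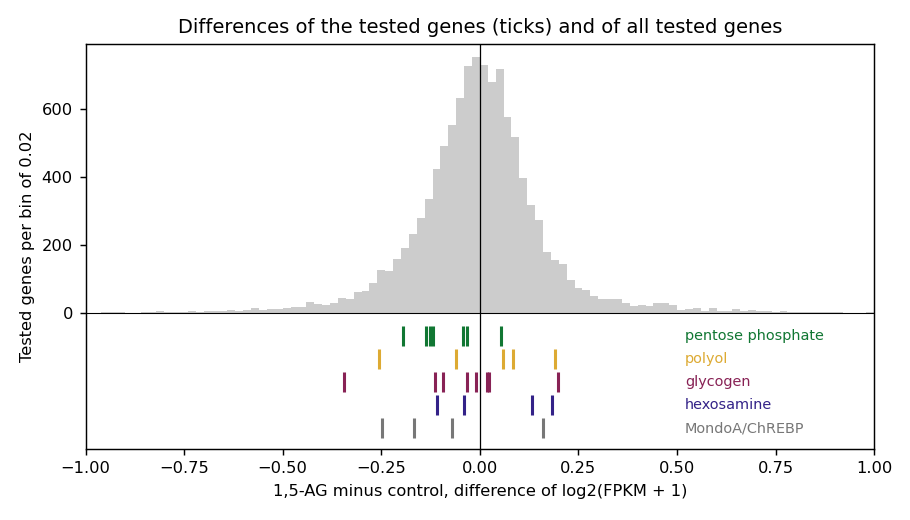
Histogram of the differences of all 11120 tested genes in bins of 0.02, with the 28 genes as ticks in a row per pathway. The axis ends at 1 in each direction and leaves out 67 genes of larger difference, and the ticks run from -0.34 (Pgm1) to 0.20 (Gbe1).

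The pentose phosphate genes had the highest summed FPKM of the 5 groups of genes. A negative difference was seen in 6 of the 7 (median -0.12), beside 5656 of the 11120 tested genes. Of these 6, Pgls and Rpia changed sign with a library left out. In 4 of the 7 (57.1%, beside 25.4% of tested genes) both 1,5-AG libraries lay below both controls. G6pdx, the dehydrogenase that commits glucose phosphate to the pathway and makes the first NADPH, had 98.8 and 99.9 FPKM in control and 89.7 and 93.3 with 1,5-AG. Its difference was -0.12 (95% interval -0.22 to -0.02). Pgd, which makes the second NADPH, had 118 and 116 FPKM in control and 108 and 107 with 1,5-AG, a difference of -0.13 (-0.21 to -0.04). In both NADPH-making genes of the oxidative branch the groups were separate, with percent changes of -7.94% in G6pdx and -8.39% in Pgd. Neither of these passed limma (adjusted p = 0.208 and 0.164). Pgls, the lactonase between them, could not be placed: its controls were 30.2 and 21.2 FPKM, with both 1,5-AG libraries between them at 26.0 and 23.2.

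Among the non-oxidative enzymes, Taldo1 (transaldolase, ENSMUSG00000025503, chromosome 7, 141392199 to 141402968, mm10) had the smallest p of the 28 tested genes. It was read at 187 and 191 FPKM in control and at 163 and 168 FPKM with 1,5-AG, from 5167 to 6739 fragments a library. The groups did not overlap, the difference was -0.19 (SE 0.04) and limma gave an adjusted p of 0.0841. The call differed between settings. Limma gave an adjusted p of 0.0321 with protein coding genes only, where 4.36% of genes passed, and of 0.0481 at a minimum mean of 5 FPKM, where 4.8% passed. With the replicate block on the same 11120 genes it gave 0.0441. Over all alternatives its adjusted p ran from 0.00266 (voom) to 0.311 (without 1,5-AG replicate 1). Tkt (transketolase), the other carbon-shuffling enzyme of the branch, had 88.6 and 84.8 FPKM in control and 80.5 and 77.1 with 1,5-AG, again separate groups, with a difference of -0.14 (-0.25 to -0.02). The other 2 enzymes of the branch interconvert pentose phosphates. Rpia (ribose phosphate isomerase) overlapped between groups, at 11.3 and 10.4 against 10.9 and 10.4 FPKM. Rpe (ribulose phosphate epimerase) had a positive difference of 0.05 (-0.07 to 0.18), from 17.8 and 17.6 to 17.9 and 18.9 FPKM. Summed over the 7 genes, the route held 552 and 541 FPKM in control and 496 and 497 FPKM with 1,5-AG. Such a sum follows the most abundant genes. The glycogen sums were 111 and 110 in control against 107 and 108 with 1,5-AG. Sums overlapped between groups in the polyol (366 and 362 against 355 and 364) and hexosamine genes (71.9 and 76.0 against 71.5 and 74.7). They also overlapped in the MondoA/ChREBP axis (113 and 121 against 105 and 115).

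The wider pentose and ribose list held 13 genes, of which 9 were tested. Of these, 0 passed limma in either direction and 0 passed voom. At unadjusted p under 0.05 there was 1 (11.1%, beside 18.2% of all tested genes). The list median of 0.02 had the opposite sign to that of the 7 core enzymes. H6pd, the dehydrogenase of the endoplasmic reticulum that does the same work there, had 8.44 and 8.23 FPKM in control and 7.46 and 7.65 with 1,5-AG (-0.13, adjusted p = 0.304). Prps1, which turns ribose phosphate into the precursor of nucleotides and is the most abundant gene of the list, had 56.0 and 56.3 FPKM in control and 65.6 and 59.9 with 1,5-AG (0.16, adjusted p = 0.226). G6pd2, a copy of G6pdx with 93.2% identity over 2332 bp, had 2 fragments in control replicate 1 and 0 in the other 3 libraries, at or under the floor of 3 fragments.

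**Figure D3:**
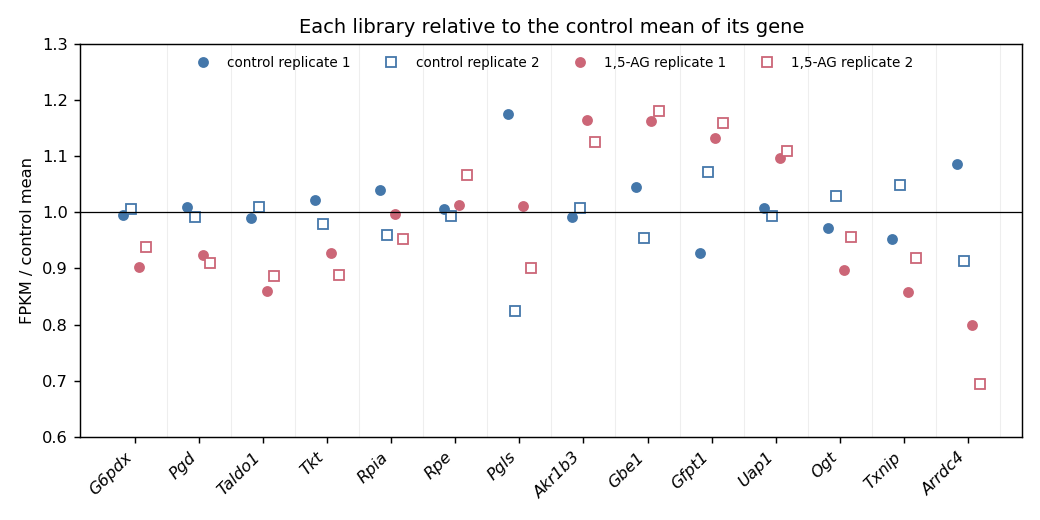
FPKM of each library divided by the control mean of the same gene, for 14 genes picked after their values were seen. The vertical axis starts at 0.6, circles are replicate 1, open squares replicate 2, blue is control and red 1,5-AG. For Taldo1 both 1,5-AG libraries lie under both controls, and for Pgls the controls lie outside both 1,5-AG libraries.

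A promoter window of 300 bases (250 before to 50 after a RefSeq start, GRCm38.p6, the same build as mm10) was present for 29 of the 31 genes, 32 windows in all. G6pdx is shown because its window holds the core of the antioxidant response element, the site of the NADPH-gene regulator NRF2 (capitals; TGACNNNGC, searched on both strands), at chrX:74428831-74429130 on the minus strand of the genome.
G6pdx: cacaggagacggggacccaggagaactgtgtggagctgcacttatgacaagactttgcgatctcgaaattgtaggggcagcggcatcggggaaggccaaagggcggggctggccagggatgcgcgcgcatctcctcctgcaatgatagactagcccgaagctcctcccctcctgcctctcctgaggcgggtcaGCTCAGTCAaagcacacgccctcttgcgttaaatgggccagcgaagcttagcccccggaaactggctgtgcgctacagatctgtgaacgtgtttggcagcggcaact
The match reads TGACTGAGC on the opposite strand of the printed one and lies at -57 to -49 relative to the start. This core was found in 12.4% of the 32851 windows, or in 14% of the 27025 genes that have one, and in 5 of the 29 genes (17.2%), which are G6pdx, Pgd, Pgm2, Arrdc4 and Mlx. Of the other 2 pentose phosphate genes whose groups did not overlap downward, Taldo1 and Tkt, none held these letters in the window. Among the 5 genes with the core, both 1,5-AG libraries lay below both controls in G6pdx, Pgd and Arrdc4 and above them in Mlx. In Pgm2 the groups overlapped. A part of this core in the differences was not tested. A match describes letters, not binding.

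In the polyol genes 3 of 5 differences were positive and 2 negative, with 0 past limma. Akr1b3, the aldose reductase that turns glucose into sorbitol (ENSMUSG00000001642, chromosome 6, 34302434 to 34317478, mm10), had 38.2 and 38.8 FPKM in control and 44.9 and 43.3 FPKM with 1,5-AG. Both 1,5-AG libraries were above both controls, with a difference of 0.19 (SE 0.04; limma adjusted p = 0.107; voom adjusted p = 0.00348). Its neighbour Akr1b8, a related reductase of aldehydes, had 38.0 and 38.3 FPKM in control and 37.3 and 44.0 with 1,5-AG, so that the groups overlapped. Akr1b3 has processed pseudogenes of 99.05% (Gm12138) and 99.47% (Gm6736) identity over 951 and 948 bp. A closer copy, Gm6644, of 99.69% identity over 951 bp, has no row in the deposited table. Fragments on Gm12138 were 71 and 84 in control and 111 and 74 with 1,5-AG, and on Gm6736 32 and 41 against 58 and 43, beside 4859 to 5498 on Akr1b3. Whether reads shared with these copies have a part in its difference was not tested.

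Sord, the dehydrogenase that turns sorbitol into fructose, overlapped between groups at 17.9 and 16.8 against 19.2 and 17.2 FPKM (0.06, -0.12 to 0.24). Khk, ketohexokinase, which phosphorylates fructose, had 15.8 and 14.6 FPKM in control and 11.4 and 13.8 with 1,5-AG. Both 1,5-AG values were lower, but they differed from each other 1.21-fold (counting interval 1.04 to 1.41), and the difference was -0.25 (-0.50 to -0.01; adjusted p = 0.266). It was -0.13 without 1,5-AG replicate 1 and -0.38 without 1,5-AG replicate 2. Akr1a1, the aldehyde reductase and the most abundant of the 31 genes, had 256 and 253 FPKM in control and 242 and 246 with 1,5-AG, a difference of -0.06 (-0.14 to 0.02). Its transcript level exceeded 98.5% of tested genes.

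The wider list of polyol, fructose and aldo-keto reductase genes had 7 tested of 10, with 0 past limma, 0 at unadjusted p under 0.05 and 0 by voom. Over all tested genes these shares were 1.46%, 18.2% and 8.3%. Akr1e1, the reductase that makes 1,5-AG itself from anhydrofructose, was expressed at 5.42 and 5.98 FPKM in control and 5.66 and 5.34 FPKM with 1,5-AG. Its groups overlapped, with a difference of -0.04 (-0.23 to 0.14). Akr7a5, the most abundant of this list, had 9.71 ± 0.993 FPKM in control and 9.19 ± 0.154 with 1,5-AG (SD, n = 2 each).

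**Figure D4:**
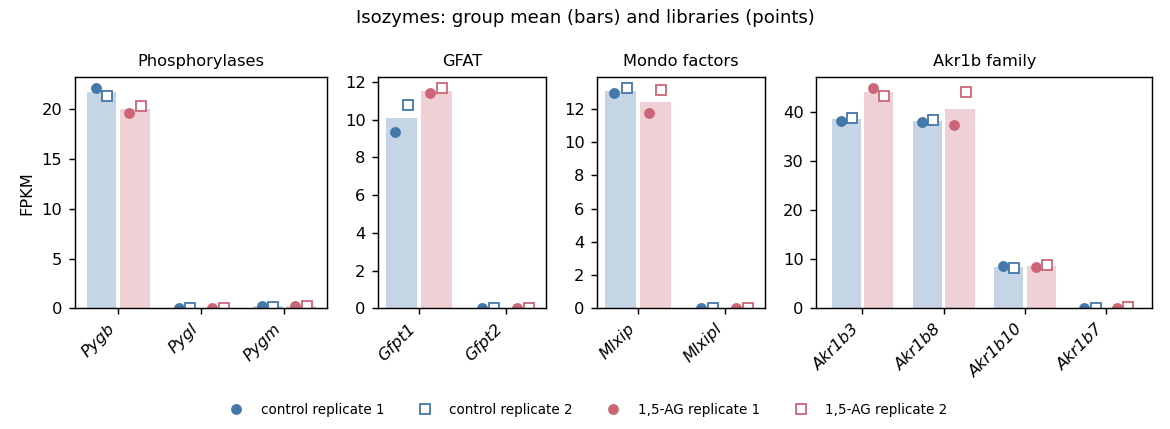
FPKM of members of 4 enzyme or factor families, with bars for the group mean (blue control, red 1,5-AG), circles for replicate 1 and open squares for replicate 2. GFAT is the family of Gfpt1 and Gfpt2. Pygb, Gfpt1 and Mlxip stand against relatives near 0 in all 4 libraries, whereas Akr1b3, Akr1b8 and Akr1b10 are each well above 0.

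Of the 10 glycogen genes 8 were tested, 5 with a negative and 3 with a positive difference (median -0.02), and 0 passed limma. The enzymes of synthesis were Gyg (glycogenin, the primer), Gys1 (the synthase), Ugp2 (which makes UDP-glucose) and Gbe1 (the branching enzyme). Gbe1 had the largest positive difference of the 28 genes, from 6.40 and 5.84 FPKM in control to 7.11 and 7.22 with 1,5-AG (0.20, 0.03 to 0.36; adjusted p = 0.209). Gys1 had 18.1 and 17.6 FPKM in control and 16.7 and 16.7 with 1,5-AG, with separate groups (-0.09, -0.21 to 0.02). Synthase and branching enzyme had differences of opposite sign, each short of the threshold. Ugp2 overlapped between groups, with 23.4 to 24.0 FPKM over the 4 libraries, and so did Gyg, with 20.5 to 23.2 FPKM.

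Of the enzymes of breakdown, Pygb, the brain-type phosphorylase, had 22.1 and 21.3 FPKM in control and 19.6 and 20.4 with 1,5-AG (-0.11, -0.23 to 0.01). Pygl, the liver-type phosphorylase, was read by 3 fragments in control replicate 2 and by 0 in the other 3 libraries, where 3 fragments correspond to 0.0287 to 0.0298 FPKM. Pygm, the muscle type, had 8 to 12 fragments a library. Pygb made up 98.9% to 99.16% of the FPKM of the 3 genes in each library. Stbd1, which tethers glycogen to membranes, had 1 to 3 fragments a library, at or under the floor of 3 fragments, and gets no fold.

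The list places the phosphoglucomutase genes Pgm1 and Pgm2 with glycogen, and the activity of their enzymes was not measured. They are matched here by identifier, since Pgm1 and Pgm2 have exchanged names between annotations. Pgm1 (ENSMUSG00000025791, chromosome 4, 99929414 to 99987294) had 3.70 and 2.66 FPKM in control and 3.44 and 1.40 with 1,5-AG, from 164, 126, 147 and 62 fragments. Its 1,5-AG libraries differed 2.45-fold (counting interval 1.81 to 3.35), the widest replicate gap among the 28 genes, whose median gap was 1.04-fold with 1,5-AG. Without 1,5-AG replicate 2 its difference changed from -0.34 to 0.10. Pgm2 (ENSMUSG00000029171, chromosome 5, 64092950 to 64128351) overlapped between groups at 15.4 and 14.1 against 14.4 and 14.8 FPKM. Ganc, a neutral alpha-glucosidase, had 1.46 to 1.60 FPKM and overlapped as well (0.02, -0.26 to 0.30). The wider glycogen list had 11 tested of 23 with 0 past limma. At unadjusted p under 0.05, 2 were lower (18.2%, beside 9.04% of all tested genes). Ganab, a glucosidase of glycoprotein folding and the most abundant gene of the list, had 60.1 and 62.2 FPKM in control and 64.0 and 61.4 with 1,5-AG. Voom called 2 of the 11, beside 8.3% of all tested genes. Both were lower, and they are named here after their values were seen. These were Phka2, a subunit of phosphorylase kinase (-0.21), and Gsk3b, a kinase that acts on the synthase (-0.18).

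**Figure D5:**
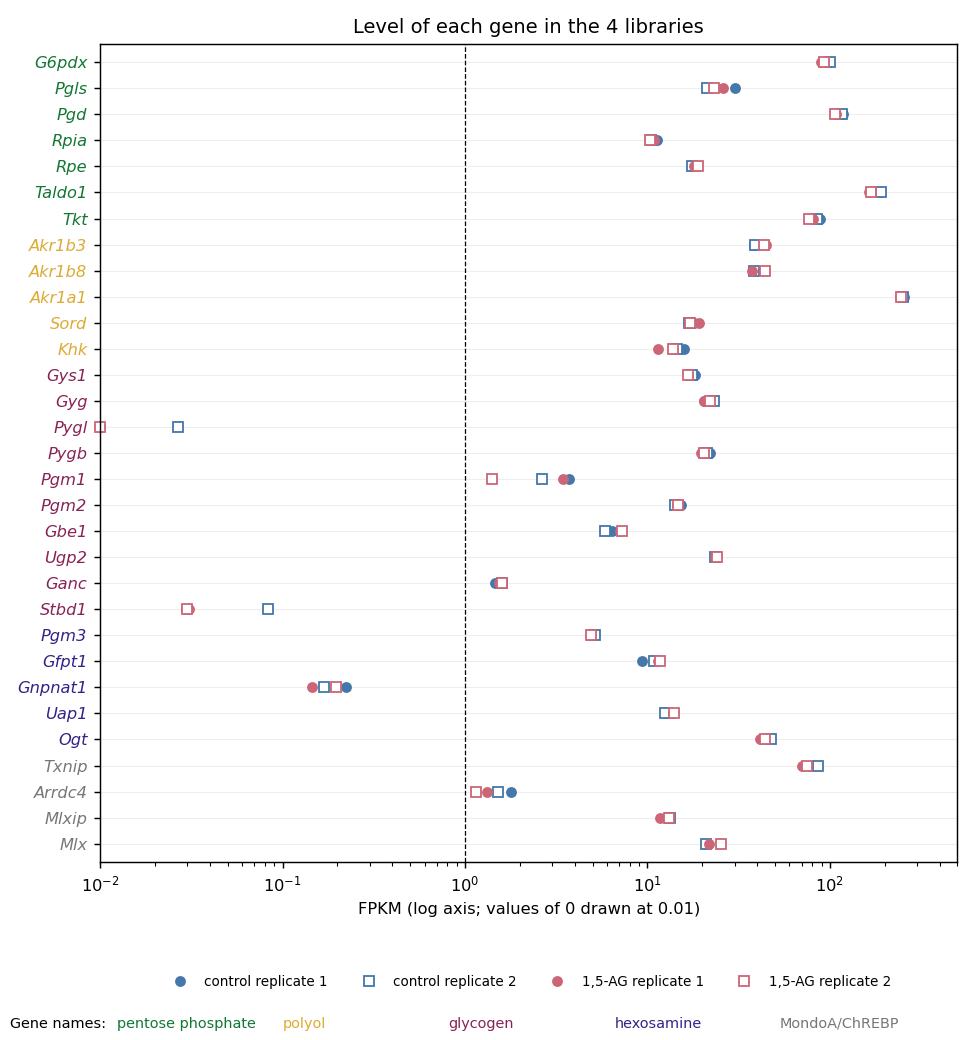
FPKM of the 31 genes in each library on a log axis, with gene names coloured by pathway, circles for replicate 1 and open squares for replicate 2 (blue control, red 1,5-AG). Values of 0 are drawn at 0.01 and the dashed line marks 1 FPKM, the minimum mean for testing. Pygl, Stbd1 and Gnpnat1 lie under it, and Akr1a1 is highest.

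Among the 5 hexosamine genes 4 were tested, 2 with positive and 2 with negative differences, and 0 passed limma. Gfpt1 (glutamine fructose phosphate transaminase), the entry and rate-limiting step, had 9.35 and 10.8 FPKM in control and 11.4 and 11.7 with 1,5-AG (0.18, -0.01 to 0.38; adjusted p = 0.306). Uap1, the last step, which makes UDP-GlcNAc, had 12.7 and 12.5 FPKM in control and 13.8 and 14.0 with 1,5-AG (0.13, 0.02 to 0.25; adjusted p = 0.227). In both genes the 1,5-AG libraries lay above the controls, as in 24.2% of tested genes. The gap between the control libraries of Gfpt1 was 1.16-fold. Without control replicate 1 the difference of Gfpt1 was 0.087, and without control replicate 2 it was 0.28. Pgm3, the mutase of the route, had 4.92 and 5.15 FPKM in control and 4.86 and 4.88 with 1,5-AG (-0.04, -0.20 to 0.12). Ogt, which places the O-GlcNAc mark on proteins, lay below the controls in both 1,5-AG libraries, at 44.7 and 47.4 against 41.3 and 44.0 FPKM (-0.11, -0.24 to 0.03). Mgea5, the gene of the enzyme that removes that mark (also called Oga), had 14.0 and 14.2 FPKM in control and 12.7 and 13.4 with 1,5-AG (-0.10). The difference of Ogt was -0.063 without 1,5-AG replicate 1 and -0.15 without 1,5-AG replicate 2. Writer and eraser both had negative differences, and neither passed limma (adjusted p = 0.368 and 0.382).

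Gnpnat1, the acetyltransferase between Gfpt1 and Pgm3, was listed at 0.223 and 0.169 FPKM in control and 0.144 and 0.196 with 1,5-AG, from 10 to 16 fragments. Its exons (ENSMUSG00000037722, chromosome 14, 45376334 to 45404913, minus strand) share 3878 of 4735 bp (81.9%) with those of Styx on the opposite strand. A processed pseudogene, AC132351.1, is 98.56% identical to it over 556 bp and had 32 to 49 fragments a library, more than Gnpnat1 itself in all 4. The strand setting of the counting is not stated, and the part of either in the low value was not tested. Gfpt2, the second entry enzyme, had 0 fragments in both controls and 1 in each 1,5-AG library, and no fold is given. In the wider list of hexosamine and nucleotide sugar genes 18 of 21 were tested and 0 passed limma. At unadjusted p under 0.05, 2 were lower (11.1%, beside 9.04% of all tested genes) and 1 higher (5.56%, beside 9.15%). The most abundant gene of this list, the galactokinase Galk1, had 79.0 and 72.6 FPKM in control and 88.2 and 80.1 with 1,5-AG. Voom called 1 of the 18, beside 8.3% of all tested genes. That was Gnpda1, a deaminase that runs the entry step backwards (-0.22 by voom), named here because of that value.

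In the MondoA/ChREBP axis the factor present was MondoA: Mlxip had 11.8 to 13.2 FPKM, whereas Mlxipl had 0 to 3 fragments a library. Mlxip overlapped between groups (-0.07, -0.24 to 0.10). Mlx, the partner of both factors, had 20.8 and 20.8 FPKM in control and 21.7 and 25.2 with 1,5-AG (0.16, -0.04 to 0.36; adjusted p = 0.358). The groups were separate, and the difference was 0.058 without 1,5-AG replicate 2.

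Of the targets, Txnip, the arrestin that brings about removal of glucose transporters from the membrane, had 77.8 and 85.7 FPKM in control and 70.1 and 75.1 with 1,5-AG. Its difference was -0.17 (-0.33 to -0.01; limma adjusted p = 0.263; voom adjusted p = 0.0420). It was -0.098 without control replicate 2 and -0.24 without control replicate 1. Arrdc4, its close relative, had 1.80 and 1.51 FPKM in control and 1.32 and 1.15 with 1,5-AG, from 110 and 99 against 78 and 70 fragments (-0.25, -0.57 to 0.07; adjusted p = 0.382). For both genes each 1,5-AG library was below each control, as for 25.4% of tested genes.

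The promoter windows of these 2 targets are shown because MondoA and ChREBP bind a carbohydrate response element, searched here as a pair of CACGNG sites 5 bases apart. Txnip (ENSMUSG00000038393, chromosome 3, 96557957 to 96561883) is given at chr3:96557707-96558006, plus strand, with that element and the CCAAT boxes in capitals. Arrdc4 (ENSMUSG00000042659, chromosome 7, 68736995 to 68749241) is given at chr7:68749189-68749488, minus strand, with the E-box CACGTG and the CCAAT boxes in capitals. A CCAAT box on the opposite strand reads ATTGG.
Txnip: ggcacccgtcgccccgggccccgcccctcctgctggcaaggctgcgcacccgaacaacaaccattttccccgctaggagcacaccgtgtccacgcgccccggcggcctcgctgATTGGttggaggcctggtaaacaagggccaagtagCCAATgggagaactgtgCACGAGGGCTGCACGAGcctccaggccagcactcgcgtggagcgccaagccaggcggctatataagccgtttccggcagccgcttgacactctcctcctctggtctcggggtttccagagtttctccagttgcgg
Arrdc4: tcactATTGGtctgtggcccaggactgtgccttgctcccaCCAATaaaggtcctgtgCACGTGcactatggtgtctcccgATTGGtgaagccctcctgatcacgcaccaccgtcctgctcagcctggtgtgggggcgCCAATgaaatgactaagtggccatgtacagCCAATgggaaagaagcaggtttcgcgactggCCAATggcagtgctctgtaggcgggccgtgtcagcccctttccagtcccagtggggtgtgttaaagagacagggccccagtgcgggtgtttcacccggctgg
The Txnip window holds the full element as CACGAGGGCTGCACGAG, at -85 to -69 relative to the start, with CCAAT boxes at -137 to -133 and at -102 to -98. The element occurred in 16 of 32851 windows (0.0487%; 0.0555% of genes), searched on both strands, and among the 29 genes in Txnip alone. Arrdc4 has a single E-box at -193 to -188 relative to its start and 6 CCAAT boxes, and the full element is not in this window. An E-box occurred in 7.15% of windows and 8.09% of genes, and in 4 of the 29 genes (13.8%), Arrdc4, Gyg, Khk and Mlx, where that of Mlx overlaps an antioxidant core. A CCAAT box occurred in 37.4% of windows and 41.1% of genes, and in 14 of the 29 genes (48.3%). Of the 4 genes with an E-box, Arrdc4, Khk and Gyg had negative differences and Mlx a positive one. Over all tested genes 5656 of 11120 differences were negative. The groups of Gyg overlapped, and its difference changed sign with a library left out. A part of the E-box in these differences was not tested.

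The wider list of this axis had 10 tested of 12, with 7 positive and 3 negative differences and 0 past limma. At unadjusted p under 0.05 there were 3 (30%, beside 18.2% of all tested genes). Max, the partner of MYC and the most abundant gene of the list, had 41.2 and 38.3 FPKM in control and 43.2 and 43.8 with 1,5-AG (0.13, adjusted p = 0.272). Voom called 2 of the 10, beside 8.3% of all tested genes, and they are named after their values were seen. The glucose transporter gene Slc2a1 had 35.7 and 32.5 FPKM in control and 38.5 and 40.7 with 1,5-AG (voom 0.22, adjusted p = 0.0177). Mxd4, a repressor that pairs with Max, was read by 244 and 368 control fragments, and by 186 and 159 after 1,5-AG (voom -0.73, adjusted p = 0.00460).

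Levels compared between genes depend on the exon length used. For Akr1b3 the merged exons came to 8384 bp while its longest coding transcript has 1387 bp, a 6.04-fold gap, against 1.1-fold for Akr1b8. The nearly equal FPKM of these neighbours in control goes with 4859 and 5283 fragments on Akr1b3 and 864 and 932 on Akr1b8. Of the 31 genes, 11 share exon bases with a gene on the opposite strand and 4 with one on the same strand, and 3 (Akr1b3, Sord and Gnpnat1) have a copy of at least 95% identity. Their values are uncertain to the extent that reads were divided between them.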

How the data were processed

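The authors deposited 1 table of FPKM values with a column per library. The submitters' processing notes name mm10 and the tools Cufflinks, HISAT2, HTSeq and Trimmomatic; versions, roles, annotation and strand setting: not given in the sources used here. Identifiers were matched to GENCODE M21 (21508 of 21523). FPKM times merged exon length gave whole fragments in all 4 libraries for 99.4% of matched genes, within 0.02 fragments.

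Genes with a mean of at least 1 FPKM were tested in limma 3.58.1 (R 4.3.3) on log2(FPKM + 1), group as the only term, with a variance trend, two-sided, Benjamini-Hochberg threshold 0.05; of rows sharing a symbol the highest was kept (8 left out). The fit was tested on simulated data. Alternatives changed the pseudocount, filter, scaling, variance model, genes tested, pairing and test (voom), or left out a library. Copies were sought with BLAST 2.17.0 and promoter motifs in RefSeq windows. All 31 genes are named; of wider lists, genes past the threshold, the most abundant gene and set isozymes or partners (H6pd, Akr1e1, Pygm, Gfpt2, Mgea5, Mlxipl and Gys2, of which Gys2 is not analysed here; a further one is not reported here). G6pd2 was added as a copy of G6pdx. The genes and lists were chosen with earlier results of these data known.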

Additional observations from a re-analysis of the deposited data

How the results depend on the processing

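With limma 162 of 11120 genes passed and 0 of the 28 tested genes of these routes (9 at unadjusted p under 0.05). The 162 became 0 with no filter, 360 at a mean of at least 5 FPKM, 5 without the variance trend, 412 among protein coding genes, 923 with voom, 310 with the replicate block, and 2 to 10 with 1 library left out (10 for 1,5-AG replicate 2, 2 for 1,5-AG replicate 1, 3 for control replicate 1 and 2 for control replicate 2). The 0 became 1 (Taldo1) at a mean of at least 5 FPKM, among protein coding genes and with the replicate block, and 5 with voom. It stayed 0 with pseudocounts of 0.1 and 0.01, median-ratio scaling, quantile normalization, no filter, no variance trend and each library left out. The minimum of 5 FPKM and the protein coding setting test fewer genes and also fit the variance trend anew. The cause of the shifts, in these settings and in the others, was not tested.

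The labels do not say what a shared replicate number marks. Deviations of same-numbered libraries correlated at 0.0124, and the replicate block gave Taldo1 an adjusted p of 0.0441. Of 388 values of single genes, 368 kept sign and side of the threshold, 8 gained it, and 12 changed sign, all with a library left out, in 9 genes. Their ranges were -0.29 to 0.20 for Pgls, -0.087 to 0.020 for Rpia, -0.067 to 0.049 for Pgm2, -0.018 to 0.063 for Ganc, -0.12 to 0.049 for Gyg, -0.017 to 0.13 for Sord, -0.14 to 0.0015 for Mlxip, -0.032 to 0.20 for Akr1b8 and -0.79 to 0.10 for Pgm1. With 2 libraries a group, leaving 1 out assumes that the lone one varies like the other group. The same left-out libraries moved 8 further genes by over 1.5 times without a change of sign (Rpe, Khk, Ugp2, Pgm3, Gfpt1, Ogt, Txnip and Mlx), and 11 genes moved less. Depth limits Pygl and Stbd1, at 3 fragments or fewer.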
